A study of Mus musculus with 6 samples.

Results

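A set of 10 genes known from macrophages and monocytes were examined in B lineage cells sorted from mouse small intestinal lamina propria (the connective tissue under the gut epithelium) and from bone marrow. They were Lyz2, Csf1r, C1qa, C1qb, C1qc, Fcer1g, Tyrobp, Cd68, Cx3cr1 and Adgre1. The genes were taken by symbol, and all 10 were found among the 19938 genes with a probe set of a single symbol, each through 1 probe set. Both groups came from RAG2-GFP/129Sve mice on postnatal day 17 to 25, which carry a green fluorescent reporter of Rag2, part of the enzyme that cuts DNA to assemble antigen receptors. GFP protein can persist after the gene is switched off, so the sort takes cells that use the recombinase or did so recently. Cells from 8 to 12 mice were pooled per experiment, and 3 independent pools per tissue were measured, with 1 array for each. No other agent or allele is named for either group. The question here was how much RNA of genes not typical of B cells the sorted pools held.

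Macrophages and monocytes take up particles and dying cells and break them down in lysosomes, and the lamina propria is rich in macrophages that blood monocytes replenish. Their growth and survival depend on the CSF1 receptor, encoded by Csf1r. They sense antibody-coated material through receptors that signal by a small adaptor protein, encoded by Fcer1g. Other receptors of these cells signal by the adaptor encoded by Tyrobp. They are also the main source of C1q, the molecule that starts the classical complement pathway and that is built from the products of C1qa, C1qb and C1qc. Several of these genes are used by other cells as well: Lyz2, Fcer1g and Tyrobp by granulocytes, and the adaptors by natural killer cells.

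The starts of genes in this group are sites where the transcription factor PU.1 is known to act. For 6 of the 10 genes RefSeq promoters were at hand (GRCm38.p6): C1qb, C1qc, Cd68, Cx3cr1, Fcer1g and Lyz2. Shown here are the 250 bases before the start of C1qb and C1qc, neighbours on chromosome 4 whose products join in 1 molecule, and of Lyz2, on chromosome 10, whose value varied most between arrays. Capitals mark GAGGAA, a core that PU.1 binds, or its reverse complement. The windows are chr4:136886201-136886450, chr4:136892915-136893164 and chr10:117282273-117282522, all on the minus strand and written 5′ to 3′ along the gene.
C1qb: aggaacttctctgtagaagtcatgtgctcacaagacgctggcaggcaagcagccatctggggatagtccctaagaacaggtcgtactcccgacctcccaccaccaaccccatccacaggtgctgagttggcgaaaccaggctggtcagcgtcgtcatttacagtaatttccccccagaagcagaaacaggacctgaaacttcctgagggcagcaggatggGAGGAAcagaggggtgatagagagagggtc
C1qc: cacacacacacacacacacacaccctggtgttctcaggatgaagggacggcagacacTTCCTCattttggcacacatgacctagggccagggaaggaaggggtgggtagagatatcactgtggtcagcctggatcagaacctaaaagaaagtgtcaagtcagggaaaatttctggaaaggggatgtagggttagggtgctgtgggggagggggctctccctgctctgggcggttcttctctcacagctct
Lyz2: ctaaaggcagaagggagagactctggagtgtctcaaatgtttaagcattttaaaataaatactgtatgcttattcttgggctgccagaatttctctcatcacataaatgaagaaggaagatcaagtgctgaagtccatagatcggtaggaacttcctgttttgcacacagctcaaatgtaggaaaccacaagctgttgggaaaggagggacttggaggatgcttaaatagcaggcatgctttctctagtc
GAGGAA, searched on both strands, occurred once in C1qb (at -30 from the start), in C1qc (at -193) and in Cd68 (at -225), that is in 3 of the 6 windows, and it occurs in 23.3% of 32851 promoter windows of the same length. TTGCNNAA, a site type of C/EBP factors, was found in Cd68 only (at -43), against 9.56% of all windows. TGCTGA, part of the site of MAF factors, was found in C1qb (at -131) and Lyz2 (at -125), against 16.1% of all windows. No matches overlapped. A match describes these letters and is not evidence of binding.

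The arrays set limits for what follows. Values are log2 units after RMA, a method that subtracts background and equalises arrays. Lamina propria pools 1 and 2 had a narrower spread of values than the other arrays, with interquartile ranges over all probe sets of 2.00 and 1.94 against 2.41 to 2.47. In these pools dim genes stood higher and bright genes lower than in marrow. Genes with a marrow mean of 4 to 5 had medians of 0.52 and 0.54 above it in pools 1 and 2, those at 5 to 6 had 0.44 and 0.40, and those at 6 to 7 had -0.09 and -0.13. In pool 3 these medians were 0.01, -0.02 and -0.03. Each result is therefore given by pool. The shares and medians over all genes given below are not matched for marrow level unless a level is named. The B lineage list, with 15 measured genes, had mean levels of 8.36 to 8.72 in the lamina propria and 8.64 to 9.04 in the marrow. Cd79a, a chain of the B cell receptor complex, read 7.32, 7.67 and 7.58 in lamina propria pools 1, 2 and 3 and 8.17, 8.00 and 6.27 in the marrow pools, so the groups overlapped. In sorted pools, more cells of another type and more RNA per cell cannot be told apart.

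None of the macrophage and monocyte genes passed the test between the tissues. Of the 10, 7 had a positive difference, close to the 67.6% of all genes, and their median was 0.38, against 0.22 over all genes. The median over all genes is not matched for level. For 5 of the 10 the marrow mean was 5 to 6, where the all-gene medians were 0.44 and 0.40 in pools 1 and 2. Limma called 0 of the 10 and 0 of all 19938 genes at a Benjamini-Hochberg adjusted p under 0.05 (0% in each direction). At an unadjusted p under 0.05, limma gave 3 of the 10, Csf1r and C1qc higher and Cd68 lower, against 5.53% of all genes higher and 8.15% lower. The tissues did not overlap for 4 genes that stood higher (Csf1r, C1qa, C1qc and Cx3cr1; 14.8% of all genes) and 1 that stood lower (Cd68; 7.27% of all genes). No difference between the tissue means exceeded 1 log2 unit.

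**Figure D1:**
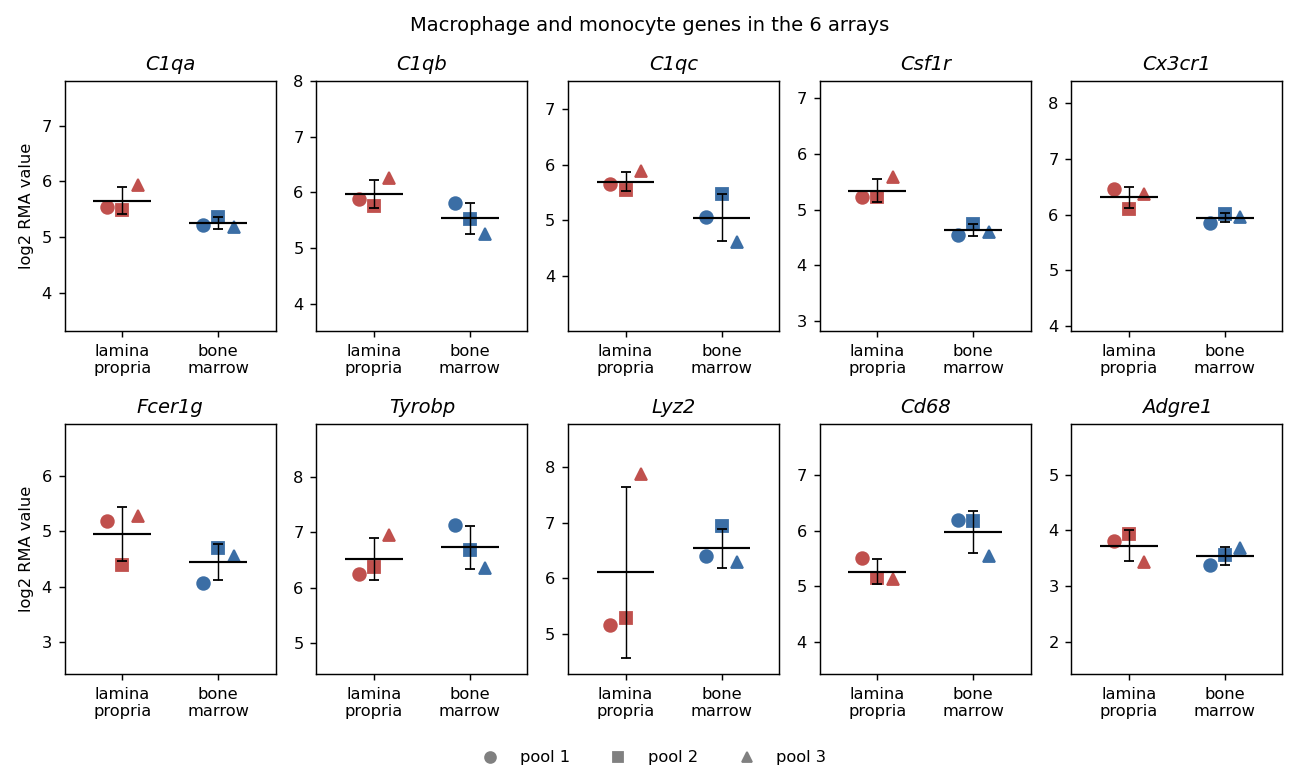
Log2 RMA values of the 10 genes in each array, lamina propria in red and bone marrow in blue, with marker shape for the pool number, a line for the mean and a bar for the SD (n = 3); every panel spans the same number of log2 units. Lyz2 splits the lamina propria pools, with pool 3 at 7.88 and pools 1 and 2 at 5.16 and 5.29.

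The 3 C1q chain genes went the same way. C1qa, which encodes the A chain, read 5.54, 5.49 and 5.94 in lamina propria pools 1, 2 and 3 and 5.22, 5.37 and 5.18 in marrow pools 1, 2 and 3. All lamina propria pools were above all marrow pools, with pool 3 highest. The difference was 0.40 (95% interval -0.09 to 0.90, limma adjusted p = 0.359).

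C1qb, the B chain, read 5.89, 5.76 and 6.25 against 5.81, 5.53 and 5.25. Here marrow pool 1 lay between lamina propria pools 1 and 2, so the groups overlapped, and the difference was 0.44 (95% interval -0.13 to 1.00, limma adjusted p = 0.361). C1qc, the C chain, read 5.66, 5.54 and 5.89 against 5.06, 5.47 and 4.62. The tissues did not overlap, although marrow pool 2 lay just below lamina propria pool 2, and the difference was 0.65 (95% interval 0.03 to 1.27, limma adjusted p = 0.356). In pools 1 and 2 the C1q genes were 0.23 to 0.61 above their marrow means, around the 0.40 and 0.44 typical of genes at that level. In pool 3 they were 0.69, 0.72 and 0.84 above, where the typical gene was at -0.02.

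Csf1r, the receptor on which macrophage survival depends, read 5.23, 5.22 and 5.58 in the lamina propria and 4.55, 4.74 and 4.60 in the marrow. The groups did not overlap, and the spread within each was small next to the gap between them (5.34 ± 0.20 against 4.63 ± 0.10, SD, n = 3 each). The difference was 0.71, or 1.64-fold (95% interval 0.24 to 1.19, limma adjusted p = 0.342, the lowest of the 10). Without lamina propria pool 3 it passed as higher (limma adjusted p = 0.0310, difference 0.60), as did 24.1% of all genes. With estimated array weights it passed too (limma adjusted p = 0.0380, difference 0.61), as did 16.9% of all genes. Pools 1 and 2 were 0.60 and 0.59 above the marrow mean, close to the 0.52 and 0.54 of genes at this level, and pool 3 was 0.95 above it.

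Cx3cr1, the receptor for the chemokine fractalkine and a marker of resident gut macrophages and some monocytes, read 6.45, 6.10 and 6.37 against 5.85, 6.02 and 5.95. The tissues did not overlap, but lamina propria pool 2 lay just above marrow pool 2. The difference was 0.37 (95% interval -0.10 to 0.83, limma adjusted p = 0.360). Pools 1 and 2 were 0.51 and 0.16 above the marrow mean, against 0.44 and 0.40 for genes at this level. Pool 3 was 0.43 above it, against -0.02. Unlike the C1q genes and Csf1r, this gene was highest in lamina propria pool 1.

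The adaptor genes showed no shared pattern. Fcer1g, which encodes the signalling chain of Fc receptors, read 5.19, 4.40 and 5.27 in the lamina propria and 4.08, 4.70 and 4.55 in the marrow. Lamina propria pools 1 and 3 were above the marrow range and pool 2 inside it, with a difference of 0.51 (95% interval -0.20 to 1.23, limma adjusted p = 0.371). Tyrobp, which encodes the adaptor DAP12, read 6.24, 6.37 and 6.95 against 7.14, 6.68 and 6.35. Its highest value was in marrow pool 1, the groups overlapped, and the difference was -0.20 (95% interval -0.89 to 0.48, limma adjusted p = 0.636).

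Lyz2, which encodes the lysozyme of macrophages and granulocytes, varied most, by 2.72 over the 6 arrays. It read 5.16, 5.29 and 7.88 in lamina propria pools 1, 2 and 3 and 6.40, 6.94 and 6.29 in the marrow pools. Pool 3 was the highest of all arrays and pools 1 and 2 the lowest, on either side of the marrow. The tissue means, 6.11 ± 1.54 and 6.54 ± 0.35 (SD, n = 3 each), therefore describe no single pool, and the difference of -0.43 had an interval of -2.05 to 1.19 (limma adjusted p = 0.672). Without pool 3, Lyz2 passed as lower (limma adjusted p = 0.0208, difference -1.32), as did 12.1% of all genes. In pool 3 alone it stood 1.34 above the marrow mean, or 2.54-fold.

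Lyz1, the neighbouring lysozyme gene, which intestinal Paneth cells use and whose sequence is close to that of Lyz2, read 5.34, 4.51 and 6.60 against 5.44, 5.61 and 5.28. It too was highest in lamina propria pool 3, by 1.16 over the marrow mean. Whether RNA of one gene was read by the probes of the other was not tested.

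Cd68, a lysosomal membrane protein used to stain macrophages, was the member that stood lower without overlap. It read 5.52, 5.14 and 5.13 in the lamina propria and 6.20, 6.18 and 5.54 in the marrow, with lamina propria pool 1 and marrow pool 3 nearly level. The difference was -0.71, or 1.63-fold lower (95% interval -1.31 to -0.10, limma adjusted p = 0.356), and pool 3, at -0.84, was on the same side as the other pools. Adgre1, an adhesion receptor and the classical surface marker of mouse macrophages, read 3.82, 3.94 and 3.42 against 3.38, 3.55 and 3.69. Pool 3 was inside the marrow range, and the difference was 0.19 (95% interval -0.34 to 0.71, limma adjusted p = 0.572).

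The pools of lamina propria cells thus differed among themselves in these genes. Pool 3 lay above all 3 marrow pools for 7 of the 10 genes, all but Tyrobp, Cd68 and Adgre1, against 24.8% of all genes, and below them for Cd68 alone, against 26.7% of all genes. It was the highest of the 6 arrays for 6 genes (Lyz2, Csf1r, C1qa, C1qb, C1qc and Fcer1g), against 8.51% of all genes. The median of the 10 in pool 3 was 0.70 above the marrow mean, against -0.01 over all genes. Pools 1 and 2 both lay above the marrow range for 5 genes (Csf1r, C1qa, C1qc, Cx3cr1 and Adgre1), against 51.2% of all genes, and both below it for Lyz2 and Cd68, against 18.7%. In pools 1 and 2 the medians were 0.32 and 0.20, against 0.31 in each over all genes.

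Pool 3 alone was also set against the 3 marrow pools in limma, which assumes that a lone array varies like the marrow arrays. No member passed over all genes, the lowest limma adjusted p being 0.407, for Csf1r. At an unadjusted p under 0.05 limma gave 5 of the 10, all higher (Lyz2, Csf1r, C1qa, C1qb and Fcer1g), against 3.86% of all genes higher and 3.29% lower. The intervals were 0.52 to 2.17 for Lyz2 and 0.49 to 1.41 for Csf1r. This is 1 pool, so its difference from the marrow has no replicate. The fit used the same values that had placed pool 3 highest of the 6 arrays for 6 of these genes. Genes read on 1 array are also not replicates of the tissue. The count of 5 is therefore a description of this pool, and no difference between the tissues is concluded from it.

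**Figure D2:**
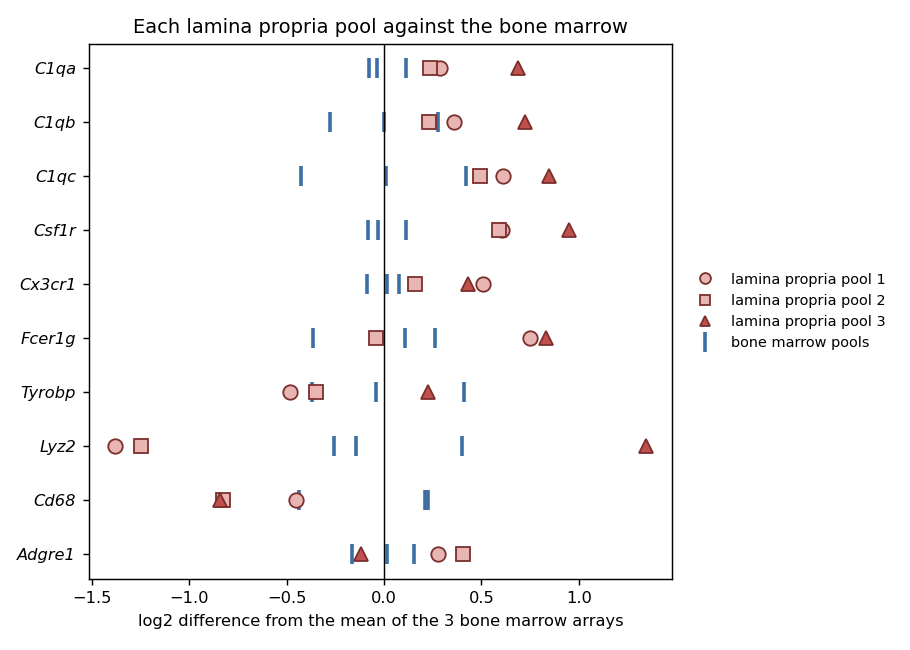
Log2 difference of each lamina propria pool from the mean of the 3 bone marrow arrays for the 10 genes, with blue ticks for the marrow pools themselves. Pool 3 (dark triangles) is to the right of every marrow tick for 7 genes, by most for Lyz2 at 1.34, and to the left for Cd68 at -0.84.

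**Figure D3:**
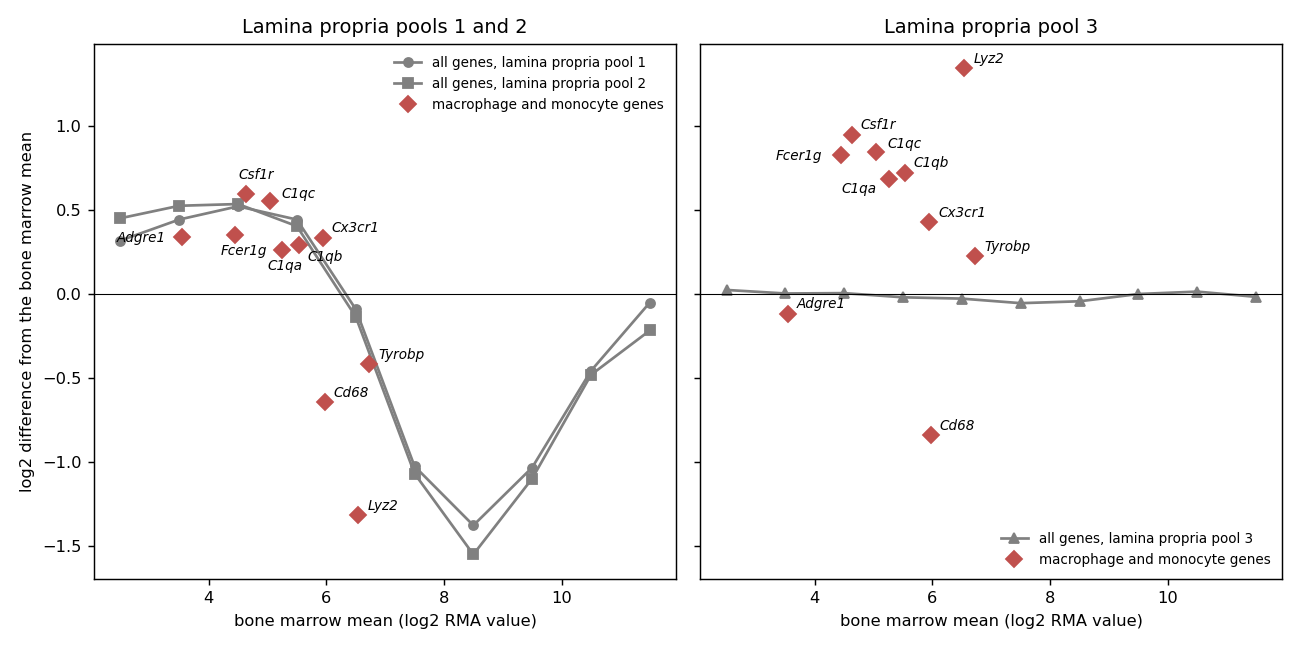
Log2 difference from the bone marrow mean against that mean, with grey lines for the median over all genes in bins of 1 log2 unit and red diamonds for the 10 genes (mean of pools 1 and 2 on the left, pool 3 on the right). On the left most of the genes sit near the grey lines, with Lyz2 at -1.32 and Cd68 at -0.64 below them; on the right the line is flat near 0 and Lyz2, Csf1r, Fcer1g and the C1q genes sit 0.69 to 1.34 above it.

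Further macrophage and monocyte genes did not all follow. Of 28 listed, 26 were measured, and limma called 0 over all genes. Of the 26, 22 had a positive difference (67.6% of all genes), 9 did not overlap and stood higher (14.8%), 0 stood lower without overlap (7.27%), and the median was 0.42 (0.22 over all genes). Their medians were 0.48, 0.54 and 0.11 in lamina propria pools 1, 2 and 3. The mean level of the list was 4.78 to 4.84 in the marrow pools. Over all genes with a marrow mean of 4 to 5, the medians were 0.52, 0.54 and 0.01. The values in pools 1 and 2 were thus near those of genes at that level. In pool 3, 10 were above the marrow range (24.8% of all genes) and 4 below it (26.7%). Apoe, a lipid carrier abundant in macrophages, read 7.66, 8.29 and 8.17 against 7.08, 7.07 and 7.08, a difference of 0.97 (95% interval 0.43 to 1.504, limma adjusted p = 0.299). All lamina propria pools were above the tightly grouped marrow pools.

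Cybb, a subunit of the phagocyte oxidase, read 4.82, 4.68 and 7.08 against 4.38, 4.65 and 5.52, so pool 3 was 2.23 above the marrow mean. Aif1 and Pf4, both found in macrophages, were 0.69 and 0.72 above it in pool 3. These 3 genes were chosen after their values were seen. Other surface markers of these cells lay close to the marrow pools in pool 3. Cd14, a coreceptor for bacterial lipopolysaccharide, was at 0.01 from the marrow mean, Fcgr1, the high-affinity IgG receptor, at 0.16 and the monocyte receptor Ccr2 at 0.13, all inside the marrow range. Itgam, an integrin of myeloid cells, was at -0.34 and inside that range, and Mertk, a receptor for dying cells, was at -0.05 and just below it. Vsig4 and Timd4, receptors of resident macrophages, had differences of 0.59 and 0.53 without overlap, with pool 3 only 0.12 and 0.28 above the marrow mean.

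Around Csf1r, 11 of 12 listed ligands, factors and related receptors were measured, 9 had a positive difference (67.6% of all genes), and 3 stood higher without overlap (14.8% of all genes). Csf1, a ligand of the receptor, differed by 0.40 and Cebpa, a myeloid transcription factor, by 0.51, with limma adjusted p of 0.356 each. Il34, the other ligand, differed by 0.49 with overlap. Spi1, which encodes PU.1, read 5.81, 5.06 and 5.12 against 5.13, 5.22 and 5.40, with pool 3 below the marrow range. The list's median was 0.28, with 0.36, 0.32 and 0.03 in lamina propria pools 1, 2 and 3.

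Among 17 measured partners of the adaptors and their kinases, 15 had a positive difference (67.6% of all genes). Without overlap 3 stood higher, a share near the 14.8% of all genes, Trem3 at 0.56, Hcst at 0.45 and Zap70 at 0.43. The list's median was 0.43, with 0.52, 0.47 and 0.10 in lamina propria pools 1, 2 and 3. Syk, the kinase that the adaptors recruit and that B cells use as well, read 8.56, 7.96 and 9.66 against 9.30, 8.70 and 9.40. As for Lyz2, lamina propria pool 3 was the highest array and pools 1 and 2 were the lowest.

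Of 14 classical complement genes and C1q partners, 11 were measured. Their median was 0.26, with 0.23, 0.51 and -0.05 in lamina propria pools 1, 2 and 3. C3ar1, a receptor for a complement fragment on myeloid cells, read 3.70, 4.01 and 5.58 against 3.40, 3.68 and 3.41. All lamina propria pools were above the marrow pools, pool 3 by 2.08 over their mean, and the difference was 0.93 (95% interval -0.17 to 2.03, limma adjusted p = 0.356). Serping1, the inhibitor of the C1 proteases, differed by 0.84 without overlap, with pool 2 highest. Cd93, a surface protein once described as a C1q receptor and also a marker of immature B cells, read 8.21, 7.57 and 8.99 against 9.72, 9.87 and 9.64. It stood lower in every lamina propria pool, by -1.48 on average (95% interval -2.31 to -0.65, limma adjusted p = 0.299).

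The 13 measured lysosome genes had medians of different sign in the lamina propria pools. Their medians were -0.85 in each of pools 1 and 2 and 0.42 in pool 3, where 7 of the 13 were above the marrow range and 1 below it (24.8% and 26.7% of all genes). Many bright genes also stood lower in pools 1 and 2, though the medians were only -0.05 and -0.22 at a marrow mean of 11 to 12. Over all genes the medians there were -0.09 and -0.13 at a marrow mean of 6 to 7. They were -1.02 and -1.07 at 7 to 8, and -1.38 and -1.55 at 8 to 9. In pool 3 they were -0.03, -0.05 and -0.04. Lamp2 and Psap had marrow means of 7.95 and 8.91. Lamp1, Lipa, Ctsd, Grn, Ctsb and Ctsl had marrow means of 6 to 7. In pool 1 they were at -1.02, -1.86, -0.67, -0.50, -0.19 and -0.27, in that order. In pool 2 they were at -0.87, -1.83, -0.49, -0.28, -0.85 and -0.0039. All but Ctsl in pool 2 were below the medians over all genes at that level. Lamp1, Grn and Psap, 3 of the 13, had pool 3 above and pools 1 and 2 both below the marrow range, as Lyz2 had. Without lamina propria pool 3 limma called 5 of the 13, all lower (12.1% of all genes were called lower). Ctsh, a lysosomal protease, differed by 0.53 without overlap, and Lamp2, a lysosomal membrane protein, by -1.45 without overlap. Lysosome genes are used by B cells too, and their part in the Lyz2 values was not tested. In the 7 measured genes of the fractalkine and monocyte chemokine axis the median was 0.31, with 0.40, 0.66 and 0.08 in pools 1, 2 and 3. Ccl4 was at 0.43 without overlap and Cx3cl1, the ligand of Cx3cr1, at 0.28 with overlap.

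Granulocyte genes, which share Lyz2, Fcer1g and Tyrobp with macrophages, were highest in marrow pool 2 for 8 of the 17 listed and in lamina propria pool 1 or 2 for another 8. The shares of all genes highest in those arrays were not computed, so the counts have no background. Lamina propria pools 1 and 2 both lay above the marrow range for 51.2% of all genes. S100a9, a neutrophil protein, read 6.56, 9.26 and 6.68 in the marrow and 5.57, 5.63 and 5.30 in the lamina propria, and its partner S100a8 read 5.27, 7.48 and 4.08 against 4.10, 4.59 and 4.05. The 17 granulocyte genes had a median 0.44 above the marrow mean in marrow pool 2, against -0.13 and -0.16 in marrow pools 1 and 3 and 0.20 and 0.38 in lamina propria pools 1 and 2. Lyz2 was also highest among marrow pools in pool 2, at 6.94. Mmp9, a granule protease, and Csf3r, the receptor for their growth factor, stood 0.34 and 0.20 higher in the lamina propria without overlap. In lamina propria pool 3, where Lyz2 was highest of all, the median of the granulocyte genes was -0.24, with 2 above the marrow range and 7 below it (24.8% and 26.7% of all genes), and S100a9 and S100a8 were at -2.20 and -1.56 from the marrow means. The mean level of the list ran from 4.54 to 5.12 in the lamina propria and from 4.64 to 5.39 in the marrow. The part of granulocyte RNA in the marrow values of Lyz2 was not tested.

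**Figure D4:**
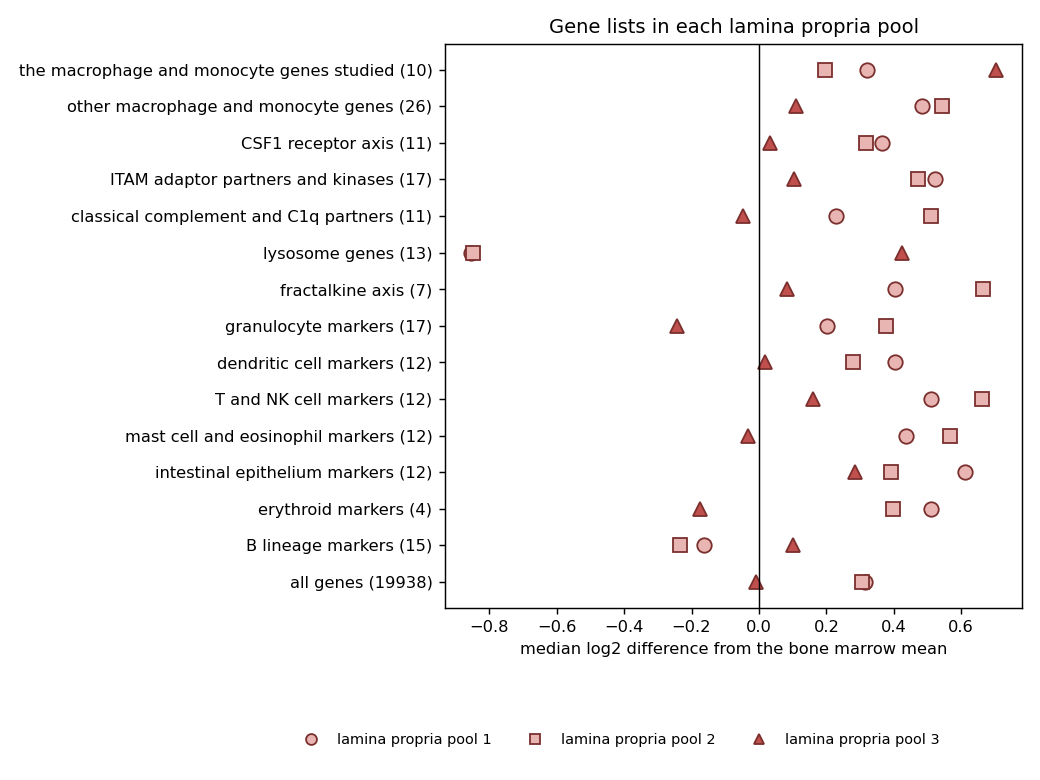
Median log2 difference from the bone marrow mean in each lamina propria pool for the gene lists, with the number of measured genes in brackets and all genes in the bottom row. The 10 macrophage and monocyte genes have the highest pool 3 median of the rows shown, at 0.70, while the granulocyte genes have the lowest, at -0.24.

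The genes whose values followed Lyz2 most closely over the 6 arrays were found by the mean absolute difference between values centred on each gene's own mean. They were Gm9958 (0.11), Emb (0.14), F630048H11Rik (0.18), Emc3 (0.19) and Avl9 (0.22 log2 units). Emb, which encodes the membrane glycoprotein embigin, read 4.18, 4.06 and 6.55 in the lamina propria and 5.27, 5.99 and 5.41 in the marrow. Like Lyz2, all 5 were highest in lamina propria pool 3 and lowest in pools 1 and 2. None is among the listed macrophage genes, and the likeness rests on 6 arrays.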

How the data were processed

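Per the labels' protocols, Trizol extracts of the sorted cells were amplified from 4.5 to 47 ng of RNA. For the amount per sample and the RMA settings no source used here gives a statement. The log2 values are those the authors deposited. Per the submitters' processing notes, RMA was run in Affymetrix Expression Console 1.3.0.187. No further scaling or filter was applied. Of 35556 probe sets, 21789 had 1 gene symbol in the platform table, 1621 several and 12146 none listed. By Entrez identifier, 21698 of the first matched RefSeq, and 0 symbols changed. Where a gene had several probe sets, the one with the highest mean was kept. The file gives no detection calls, so no gene is called absent, and levels of different genes are not compared.

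The tissues were compared over 19938 genes in limma 3.58.1 (R 4.3.3; lmFit, then eBayes without trend, no block, two-sided). P-values were adjusted by Benjamini-Hochberg over all genes (threshold 0.05) and measure the spread between pools. A difference is the lamina propria mean minus the marrow mean, with a 95% interval. The fit was tested on simulated data. The genes and lists were chosen with earlier results of these data known. Beside the 10 genes, each list gave up to 3 names, those with the largest difference without overlap (or 2 where none qualified), and a set including Cd79a, Spi1, Syk, S100a8 and Lyz1 was named always. Alternatives were 2 other scalings, a filter on dim genes (mean below 5), trend and robust variances, array weights, 2 probe set rules, a replicate block, leaving out each array, and leaving out lamina propria pools 1 and 2 together. Figures used matplotlib 3.10.9.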

Additional observations from a re-analysis of the deposited data

How the results depend on the processing

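Over 15 alternative settings, 139 of 147 differences of single macrophage and monocyte genes kept their direction and their side of the threshold, 3 passed the threshold only under an alternative, and 5 changed sign. Much of this count was fixed in advance. Each gene had 1 probe set, so the 2 probe set rules could not change its difference. Nor could trend and robust variances, the replicate block or the filter on dim genes. In the main fit 0 genes passed, which left little room to change side. With lamina propria pool 3 alone, Lyz2 was at 1.34, Tyrobp at 0.22 and Adgre1 at -0.12, and the median of the 10 genes was 0.70. In that setting 7 stood higher without overlap, against 24.8% of all genes. This is a looser rule than in the main fit, since only 1 array has to lie above the marrow range. Leaving out 1 array gave -1.32 to 0.046 for Lyz2 and -0.42 to 0.0029 for Tyrobp, with positive values without lamina propria pool 1 and without marrow pool 1. It gave 0 to 4806 genes called higher and 0 to 2416 lower, and 0 to 1 of the 10 called in each direction. The upper counts came without lamina propria pool 3. Without overlap, 4 to 6 of the 10 stood higher and 1 to 2 lower. The 6 came without lamina propria pool 2, where the share of all genes was not computed. The 2 came without lamina propria pool 3, against 18.7% of all genes. The causes were not tested. Trend and robust variances called 1 gene higher and 39 lower. Estimated array weights, with 0.15 for lamina propria pool 3, called 3368 higher and 2218 lower, with 1 of the 10 higher. The replicate block called 2 higher and 14 lower and none of the 10. Nothing in the labels says that equal pool numbers pair the samples. Deviations of same-numbered pools correlated across genes at 0.13, 0.05 and 0.23, and those of differently numbered pools at -0.21 to 0.13. With the filter on dim genes 7 of the 10 remained, without Csf1r, Fcer1g and Adgre1. The number of arrays limits the precision.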

Other observations

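Markers of other cells that the sorts could hold were also read by pool. Over all genes, the medians in pools 1 and 2 depended on the marrow mean. They were 0.32 and 0.45 at 2 to 3, 0.44 and 0.53 at 3 to 4, and 0.52 and 0.54 at 4 to 5. At 5 to 6 they were 0.44 and 0.40, and at 6 to 7 -0.09 and -0.13. Most genes of the T cell, epithelium and mast cell lists had marrow means in this range. The 12 measured T and natural killer cell genes had medians of 0.51, 0.66 and 0.16 in lamina propria pools 1, 2 and 3, and 11 of them had a positive difference, as had 67.6% of all genes. Cd3e, a chain of the T cell receptor complex, read 6.33, 6.51 and 6.24 in the lamina propria and 5.84, 5.77 and 5.54 in the marrow, a difference of 0.64 (95% interval 0.17 to 1.11, limma adjusted p = 0.356). Cd8a and Il2rb differed by 0.66 and 0.60 without overlap, with pool 3 only 0.26 and 0.11 above the marrow mean. The 12 intestinal epithelium genes had medians of 0.61, 0.39 and 0.29, and all 12 had a positive difference. Cdx1, a transcription factor of the gut epithelium, differed by 0.76, Krt19, a keratin, by 0.75 and Muc2, a mucin, by 0.70, all without overlap. In pool 3 these genes were 0.47, 0.45 and 0.30 above the marrow mean.

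The 12 dendritic cell genes had medians of 0.40, 0.28 and 0.02, with Bst2 at 0.46 without overlap. The 12 mast cell and eosinophil genes had medians of 0.44, 0.57 and -0.03, with the mast cell proteases Mcpt2, Cma1 and Mcpt1 at 0.61, 0.46 and 0.42 without overlap. In pool 3 these proteases were 0.27, 0.24 and 0.17 above the marrow mean. The 4 measured erythroid genes had medians of 0.51, 0.40 and -0.18, with Klf1 at 0.35 and Gata1 at 0.30, both with overlap. Among the B lineage genes, Rag2 and Rag1 were at -2.35 and -1.05 and the B cell coreceptor Cd22 at 0.43, all without overlap. Over all genes the medians were 0.31, 0.31 and -0.01. For dim genes the medians by marrow level given above are the nearer comparison. Limma called 0 genes of these lists. Ptprc, which encodes the leukocyte protein CD45, read 6.58, 8.26 and 9.60 in the lamina propria and 9.42, 9.32 and 10.15 in the marrow, so pool 3 lay inside the marrow range and pools 1 and 2 below it.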
